A study of Homo sapiens with 7 samples.

Results

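A set of 9 genes of growth signalling that have been reported as targets of the microRNA miR-148a were followed in HCT116 cells: IGF1R, MET, ERBB3, IRS1, PRKAA1, ROCK1, ITGA5, CAND1 and QKI. They were chosen by gene symbol, with earlier results of these data known. All 9 were counted in the mRNA libraries, and all 9 were among the 8921 genes that passed the filter on low counts, of 15659 symbols listed. HCT116 is a human colorectal carcinoma line. The cells compared were HCT116 with a DROSHA knockout, transfected with miR-148a-3p (3 libraries) or with a control miRNA (3 libraries) and harvested after 48 h. Both groups thus carry the knockout, and it is not stated in the labels whether this is a single clone, what the control sequence is or how much microRNA was given. A small RNA library of wild-type HCT116 cells, without replicate, gave the level of the microRNA in the parental line. The study's title links miR-148a-3p to DDX6 in myeloid leukemia cells, and the libraries described here address what miR-148a-3p does to messenger RNAs in cells labelled as lacking DROSHA.

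DROSHA, an RNase of the nucleus, releases microRNA precursors from their primary transcripts. A microRNA guides Argonaute to messenger RNAs that pair with its seed, usually in the 3' untranslated region, and the bound message is repressed in translation and shortened in its lifetime. Changes in RNA level from a single microRNA are commonly small, and repression of translation is not seen in RNA counts. The 9 genes sit at several levels of growth control: receptor tyrosine kinases at the membrane (IGF1R, MET, ERBB3), the adaptor that carries insulin and IGF signals to PI3-kinase (IRS1), an energy-sensing kinase that holds growth back (PRKAA1), a kinase of actomyosin contraction (ROCK1), a fibronectin-binding integrin chain (ITGA5), an exchange factor of cullin ubiquitin ligases (CAND1) and an RNA-binding protein of splicing and RNA stability (QKI).

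The transfected microRNA and its relatives are shown because the seed, written in capitals (bases 2 to 8), is what a target site pairs with. The RefSeq mature sequences (GRCh38.p14), 5' to 3', are these:
miR-148a-3p: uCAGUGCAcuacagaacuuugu
miR-148b-3p: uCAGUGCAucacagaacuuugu
miR-152-3p: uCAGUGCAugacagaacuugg
These were the 3 mature names in the RefSeq table with this seed. Compared position by position from the 5' end, miR-148a-3p matched miR-148b-3p at 20 positions and miR-152-3p at 18. In the parental line miR-148a-3p (chromosome 7, 25949922 to 25949943, minus strand) had 253510 of 3627859 microRNA counts, a share of 6.99% (Wilson 95% interval 6.96% to 7.01%, counting error only). miR-148b-3p (chromosome 12, 54337278 to 54337299, plus strand) had 7365 counts and miR-152-3p (chromosome 17, 48037174 to 48037194, minus strand) had 189. Wild-type HCT116 thus carries this seed mainly as miR-148a-3p, at 97.1% of the counts of the 3 names, whereas the mRNA libraries come from the knockout, whose microRNAs were not analysed here. Sequences of target sites are not printed, since no transcript sequence was used here.

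The mRNA libraries held 1564125, 842294 and 630142 counts with miR-148a-3p and 1069154, 876131 and 890849 with the control. The RNA was primed with oligo-dT, and how counts depend on transcript length was not examined. Levels are given in CPM, reads per 1000000 reads of the tested genes after TMM scaling (a correction for library composition), and log2 fold changes have miR-148a-3p on top, with their standard errors (SE). Values after ± are SDs over the 3 libraries of a group. DROSHA had 20, 15 and 13 reads with miR-148a-3p and 31, 16 and 16 with the control, which checks neither the knockout nor the labels because both groups carry it. Of 20 colon epithelium markers 12 were counted, summing to 1736 to 1921 CPM with miR-148a-3p and 1840 to 2079 CPM with the control, most of it from KRT18 (58.6% of their reads), and CDX1, KRT20, CDH17 and CEACAM5 were at 0 in every library. The 18 blood cell markers summed to 6.59 to 13.8 CPM with miR-148a-3p and 7.00 to 11.4 CPM with the control, with PTPRC and CD34 among the 14 at 0. The 15 fibroblast and endothelial markers summed to 55.6 to 100.4 CPM with miR-148a-3p and 59.5 to 91.5 CPM with the control, mostly COL1A1 (72.4% of their reads). Along principal component 1 of all tested genes, miR-148a-3p replicate 3 (34.2) and control replicate 1 (−31.4) stood at opposite ends, with the other libraries at −4.68 and 13.1 with miR-148a-3p and −8.29 and −2.97 with the control. Values without control replicate 1 are given beside several of the results that it moves.

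None of the 9 genes passed the test between miR-148a-3p and control, while the fitted value of each was lower with miR-148a-3p. The log2 fold changes ran from −0.74 for PRKAA1 to −0.04 for MET, with a median of −0.31, against a median of −0.0039 over all genes tested, of which 50.5% had a lower fitted value. With edgeR, 0 of 9 had an adjusted p below 0.05, where 0.0112% of all genes (1 gene, MORF4L1) did. At an unadjusted p below 0.05 edgeR gave 0 of the 9, against 6.79% of all genes. DESeq2 and limma-voom also gave 0 of the 9, and their shares over all genes are not given here. CAND1 was the 1 gene of the 9 whose groups did not overlap, where 6.59% of all genes were lower without overlap and 6.22% higher.

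That the lower direction was shared by all 9 genes depended most on control replicate 1. That library held the highest level of 6 of the 9 genes, and all 9 lay above their own mean over the 6 libraries there. With control replicate 1 left out, 4 of the 9 had a lower fitted value (49.0% of all genes did). They were PRKAA1 (log2 fold change −0.83), CAND1 (−0.42), QKI (−0.40) and ROCK1 (−0.25), and the median of the 9 was 0.0020. Leaving out any other library kept 8 or 9 of the 9 lower, with medians between −0.44 and −0.18. On the log2 scale, relative to each gene's own mean, the median of the 9 was 0.03, −0.08 and −0.30 in miR-148a-3p libraries and 0.34, 0.0034 and 0.09 in control libraries. PRKAA1, QKI, CAND1 and ROCK1 kept a lower fitted value in each of the 15 alternative fits, and the other 5 genes did not.

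**Figure D1:**
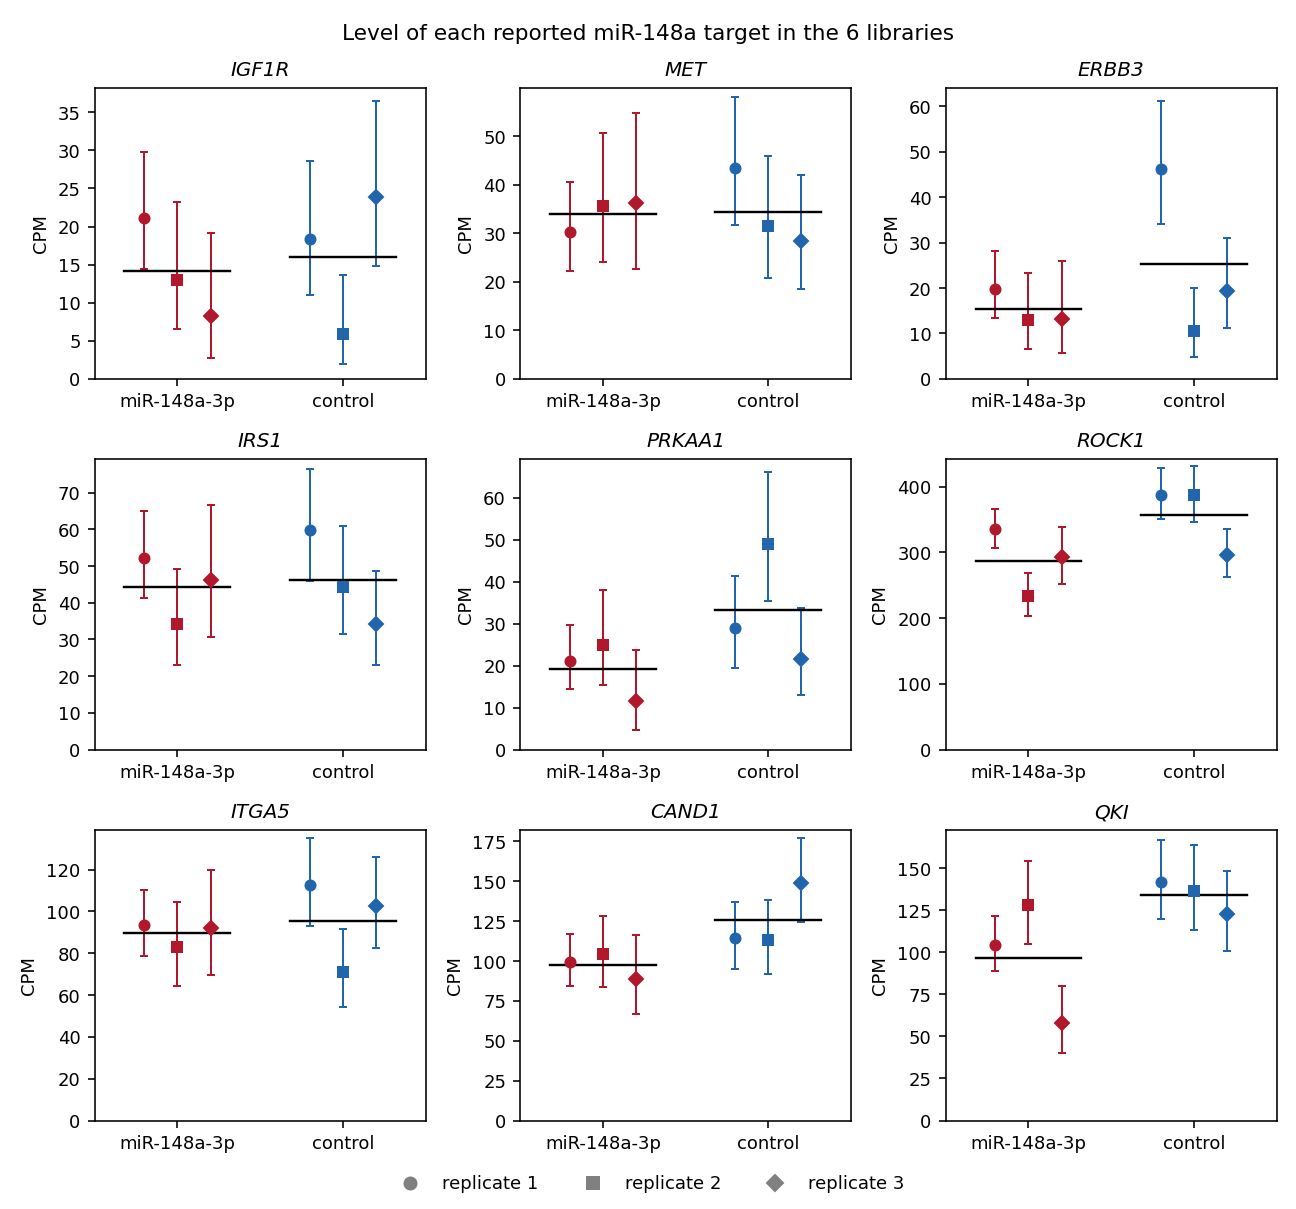
Level of each of the 9 genes in CPM (linear axis from 0) in the 3 miR-148a-3p libraries (red, left) and the 3 control libraries (blue, right). Symbols are replicates, error bars are exact Poisson 95% intervals of the read count (counting error only) and black lines are group means. CAND1 is the gene whose groups do not overlap, at 88.9 to 104 CPM with miR-148a-3p and 113 to 149 CPM with the control, and ERBB3 in control replicate 1 stands at 46.2 CPM above its other 5 libraries.

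Of the receptors, IGF1R, which binds insulin-like growth factors, was the least abundant of the 9 genes. It was at 21.1, 13.0 and 8.23 CPM with miR-148a-3p (32, 11 and 5 reads) and at 18.3, 5.83 and 23.9 CPM with the control (19, 5 and 21 reads). The groups lay over each other, and the control libraries alone spanned the whole range. The log2 fold change was −0.10 (SE 0.52, adjusted p = 0.980). Its 95% interval runs from 0.448 to 1.93 of the control level, so a fall or a rise within those bounds is compatible with these counts. Without control replicate 1 the log2 fold change was 0.0020. IGF1R lies on chromosome 15, from 98648539 to 98964530.

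MET, the receptor of hepatocyte growth factor (chromosome 7, 116672196 to 116798377), had 30.3, 35.5 and 36.2 CPM with miR-148a-3p, against 43.3, 31.5 and 28.4 CPM with the control. The group means lay side by side, at 34.0 ± 3.22 CPM with miR-148a-3p and 34.4 ± 7.87 CPM with the control (SD, n = 3 each), with a log2 fold change of −0.04 (SE 0.32, adjusted p = 0.991). The 95% interval was 0.615 to 1.54 of control. Without control replicate 1 the log2 fold change was 0.16.

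ERBB3, the neuregulin receptor that signals through its partners because its own kinase is weak (chromosome 12, 56080108 to 56103505), had 19.8, 13.0 and 13.2 CPM with miR-148a-3p and 46.2, 10.5 and 19.3 CPM with the control. The high value is control replicate 1, with 48 reads, and the other 2 control libraries lie within or below the miR-148a-3p range. The log2 fold change of −0.70 (SE 0.47, adjusted p = 0.796) was 0.075 without that library, and −1.06 without control replicate 2. The control counts of ERBB3 varied 12.5 times as much as Poisson sampling would give, the most of any of the 9 genes in either group, against 1.01 times with miR-148a-3p.

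IRS1, the docking protein that insulin and IGF receptors phosphorylate (chromosome 2, 226731312 to 226799820), was at 52.1, 34.3 and 46.1 CPM with miR-148a-3p and 59.7, 44.3 and 34.1 CPM with the control. Each group covers most of the range of the other. The log2 fold change was −0.06 (SE 0.30, adjusted p = 0.983), 0.18 without control replicate 1, and the interval was 0.627 to 1.48 of control.

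PRKAA1, the α1 catalytic subunit of AMP-activated kinase, had the lowest fitted value of the 9 (chromosome 5, 40759389 to 40798374). It was counted at 21.1, 24.8 and 11.5 CPM with miR-148a-3p (32, 21 and 7 reads) and at 28.9, 49.0 and 21.6 CPM with the control (30, 42 and 19 reads). Control replicate 2 was high and miR-148a-3p replicate 3 was low, with an exact Poisson interval of 4.63 to 23.7 CPM for its 7 reads. The groups overlap, as miR-148a-3p replicate 2 lies above control replicate 3. PRKAA1 was at 0.598 of its control level (95% interval 0.342 to 1.05), a log2 fold change of −0.74 (SE 0.39, adjusted p = 0.726), and 2.68% of all tested genes had a lower value. It was −0.37 without control replicate 2.

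ROCK1, the kinase that drives myosin contraction (chromosome 18, 20946906 to 21111813), was the most abundant of the 9 and ranked 500 among the 8921 tested genes. It had 335, 234 and 293 CPM with miR-148a-3p, from 509, 198 and 178 reads, and 388, 387 and 297 CPM with the control, from 403, 332 and 261 reads. Of the miR-148a-3p libraries 2 lay below the lowest control library, by little in replicate 3. The level was 0.807 of control (95% interval 0.618 to 1.05), a log2 fold change of −0.31 (SE 0.19, adjusted p = 0.771). When miR-148a-3p replicate 2 was left out, it was −0.18. The pseudogene ROCK1P1 had 1 read in all 6 libraries, and with it added the log2 fold change of ROCK1 was −0.31.

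ITGA5, the α chain of the fibronectin receptor (chromosome 12, 54395261 to 54419266), was at 93.6, 82.8 and 92.2 CPM with miR-148a-3p and 113, 71.2 and 102 CPM with the control. The miR-148a-3p libraries lay close together inside the control range. The log2 fold change was −0.09 (SE 0.23, adjusted p = 0.955) and 0.044 without control replicate 1, with an interval of 0.673 to 1.30 of control.

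CAND1, which strips and exchanges the substrate receptors of cullin ligases (chromosome 12, 67269358 to 67319953), had 99.5, 104 and 88.9 CPM with miR-148a-3p and 115, 113 and 149 CPM with the control. Every miR-148a-3p library was below every control library, with control replicate 3 well above its group. The means were 97.5 ± 7.80 CPM with miR-148a-3p and 126 ± 20.3 CPM with the control (SD, n = 3 each). CAND1 was at 0.780 of control (95% interval 0.574 to 1.06), a log2 fold change of −0.36 (SE 0.22, adjusted p = 0.770), and −0.22 without control replicate 3.

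QKI, a STAR-family RNA-binding protein (chromosome 6, 163414718 to 163578592), had 104, 128 and 57.6 CPM with miR-148a-3p and 142, 137 and 123 CPM with the control. The control libraries were tight, and miR-148a-3p replicate 3, with 35 reads, lay far below the others. The level was 0.734 of control (95% interval 0.524 to 1.03), a log2 fold change of −0.45 (SE 0.24, adjusted p = 0.726). Without miR-148a-3p replicate 3 it was −0.21, and −0.67 when replicate 2 of that group was left out.

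**Figure D2:**
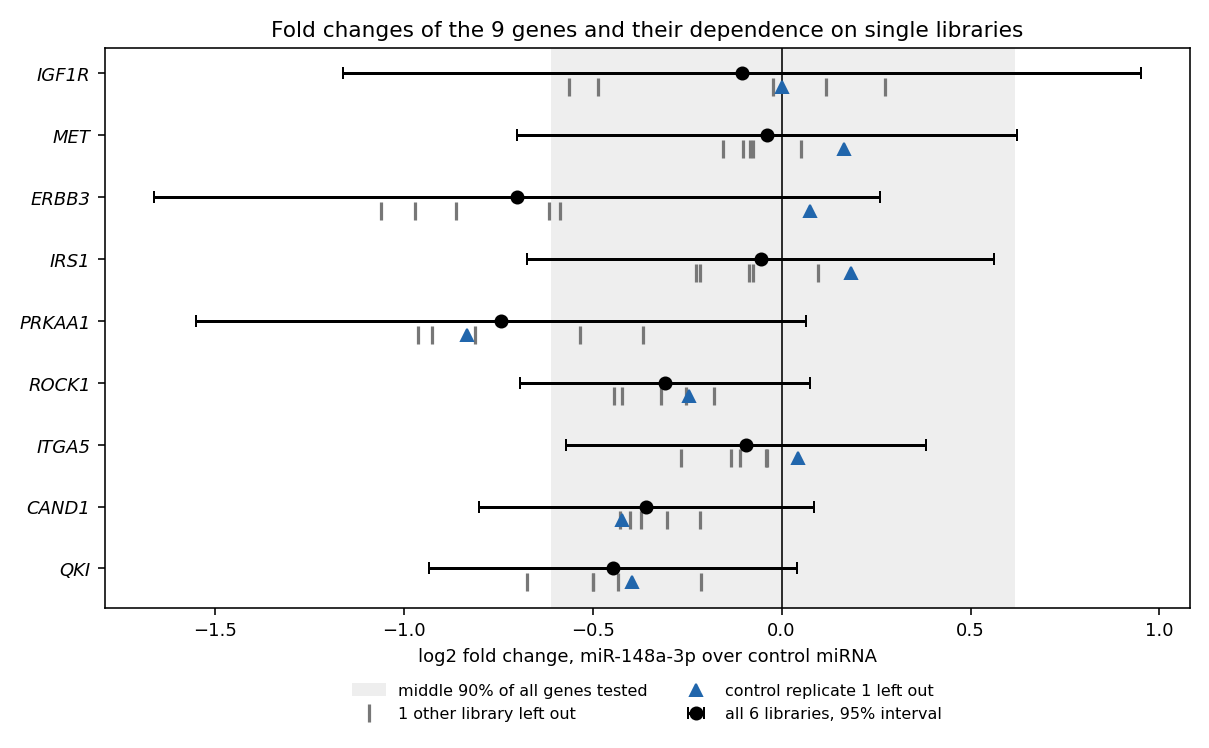
Log2 fold change (miR-148a-3p over control) of each of the 9 genes from all 6 libraries, with its 95% interval (black), and from the fits without 1 library (grey ticks, and blue triangles for control replicate 1). The grey band holds the middle 90% of all 8921 genes, from −0.61 to 0.62. Every black interval crosses 0, and the triangles of IGF1R, MET, ERBB3, IRS1 and ITGA5 lie above 0.

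Several of the 9 genes have relatives in the same gene family, and a share of reads within such a set does not depend on the scaling between libraries. These sets were chosen after values were seen, and the shares are given without a test. PRKAA1 gave 13.3%, 19.8% and 10.0% of the reads of both catalytic subunits of AMP-activated kinase with miR-148a-3p, and 21.0%, 33.1% and 12.3% with the control. PRKAA2, the α2 subunit, gave the larger part in every library, at 114 ± 20.2 CPM with miR-148a-3p and 121 ± 29.0 CPM with the control (SD, n = 3 each). ROCK1 held 57.0%, 53.5% and 54.1% of the reads of ROCK1 and ROCK2 with miR-148a-3p, and 57.7%, 60.9% and 52.4% with the control. For ROCK2 the levels were 235 ± 27.4 CPM with miR-148a-3p and 267 ± 17.9 CPM with the control.

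IGF1R gave 35.6%, 27.5% and 15.6% of the reads of IGF1R and the insulin receptor INSR with miR-148a-3p, and 27.5%, 11.1% and 33.3% with the control, so INSR was the more abundant of the pair in all 6 libraries. IRS1 gave 27.0%, 25.0% and 26.2% of the IRS1 and IRS2 reads with miR-148a-3p, and 36.7%, 28.1% and 18.5% with the control. Among EGFR, ERBB2 and ERBB3, the last held 14.6%, 9.17% and 9.09% with miR-148a-3p and 21.1%, 7.14% and 13.2% with the control. EGFR was the most abundant of these receptors, at 94.5 ± 5.85 CPM with miR-148a-3p and 115 ± 21.8 CPM with the control, and ERBB2 was at 31.1 ± 9.24 CPM with miR-148a-3p and 31.2 ± 4.39 CPM with the control. ITGA5 held 12.7%, 11.1% and 12.5% of the reads of 7 integrin α chains with miR-148a-3p and 15.7%, 9.64% and 12.0% with the control. The laminin-binding chains ITGA3 (330 ± 25.2 CPM with miR-148a-3p and 314 ± 42.3 CPM with the control) and ITGA6 (221 ± 22.5 CPM with miR-148a-3p and 248 ± 38.9 CPM with the control) stood above it. In each of these 6 sets the shares of the groups overlapped.

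**Figure D3:**
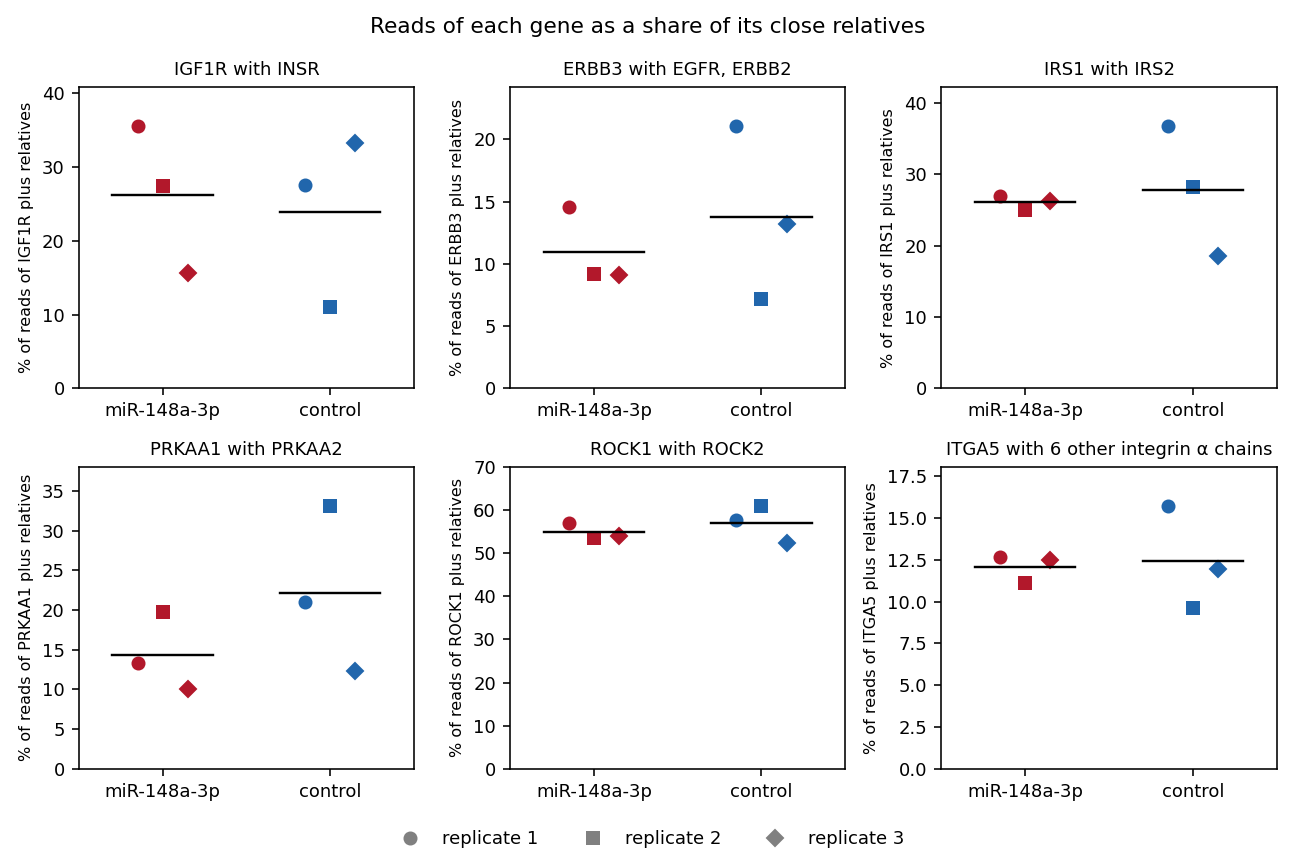
Reads of a gene as a percentage of the reads of that gene and its named relatives (linear axis from 0) in the miR-148a-3p libraries (red, left) and the control libraries (blue, right), with group means as black lines. The groups overlap in all 6 panels, and PRKAA1 stays at or below 33.1% of the AMP-activated kinase catalytic subunit reads.

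The partners of the 9 genes were read from 7 pathway lists, and no gene of these lists passed over all genes tested with edgeR, in either direction. Over all genes tested, 6.79% had an unadjusted p below 0.05 with edgeR, 6.59% were lower without overlap of the groups and 6.22% higher. Of 34 tested genes of insulin and IGF receptor signalling, 13 had a fitted value below 0 and 21 above, with a median log2 fold change of 0.04 (−0.05 without control replicate 1). SOS2, an exchange factor of RAS, was the 1 with an unadjusted p below 0.05, at 36.2, 35.5 and 34.6 CPM with miR-148a-3p and 59.7, 51.3 and 54.6 CPM with the control. Its groups did not overlap (log2 fold change −0.64, SE 0.28, adjusted p = 0.709). In this list 2 genes, SOS2 and INSR, were lower without overlap, and 2 were higher, INPPL1 among them. The adaptor GRB10 was at −0.54 (SE 0.41), the kinase PDPK1, which activates AKT, at 0.51 (SE 0.32, and 0.27 without control replicate 1), and the lipid phosphatase INPPL1 at 0.31 (SE 0.21). INSR was at 39.0 ± 5.11 CPM with miR-148a-3p and 47.5 ± 0.77 CPM with the control. IRS2 was at 125 ± 19.6 CPM with miR-148a-3p and 122 ± 24.8 CPM with the control. The ligand IGF2 had 1 read in all miR-148a-3p libraries and 3 in all control libraries.

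Of the tested MET and ERBB ligands, receptors and adaptors, 10 of 18 had lower fitted values and 8 higher ones, with a median of −0.03. ADAM17, the protease that releases most ERBB ligands, was at 108, 78.1 and 102 CPM with miR-148a-3p and 172, 152 and 129 CPM with the control, without overlap (log2 fold change −0.65, SE 0.22, adjusted p = 0.504). Its relative ADAM10 was at −0.62 (SE 0.26), and these 2 had an unadjusted p below 0.05. Of this list 2 genes, ADAM17 and EGFR, were lower without overlap and 0 higher. The ligand AREG was at 0.59 (SE 0.37), 1.29 without control replicate 1 and 0.32 without control replicate 2. The ligand NRG1 was at 0.36 (SE 0.27), and at 0.17 without miR-148a-3p replicate 3. HGF, the ligand of MET, and ERBB4 had no read in any of the 6 libraries, and MST1R, the other receptor of the MET family, had 4 reads with miR-148a-3p and 3 with the control.

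Among 30 tested genes of AMP-activated kinase and its regulators, 16 had lower fitted values and 14 higher ones (median −0.01). STK11, the kinase that activates AMP-activated kinase, was at 50.8, 46.1 and 47.7 CPM with miR-148a-3p and 25.0, 38.5 and 29.6 CPM with the control, without overlap (log2 fold change 0.65, SE 0.31, adjusted p = 0.725). It was the 1 gene of the list with an unadjusted p below 0.05. Its pseudokinase partner STRADA was at 0.67 (SE 0.45). PRKAB1, a β subunit that scaffolds the complex, had few reads, 11, 9 and 3 with miR-148a-3p and 15, 18 and 11 with the control, and its levels did not overlap (−1.03, SE 0.54, adjusted p = 0.726). The other subunits were PRKAB2 at 58.3 ± 17.9 CPM with miR-148a-3p and 54.5 ± 5.90 CPM with the control, PRKAG1 at 71.5 ± 7.03 CPM with miR-148a-3p and 60.3 ± 16.8 CPM with the control, and PRKAG2 at 36.0 ± 16.0 CPM with miR-148a-3p and 30.0 ± 7.57 CPM with the control. MAP3K7, which can also phosphorylate the kinase, was at −0.39 (SE 0.26). Of this list 3 genes were lower without overlap and 1 higher.

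Of integrin and focal adhesion genes, 13 of 29 tested had lower fitted values and 16 higher ones (median 0.04, and −0.02 without control replicate 1). PTK2, the focal adhesion kinase, was at 129, 138 and 127 CPM with miR-148a-3p and 293, 162 and 164 CPM with the control, so its groups did not overlap and control replicate 1 was again high (−0.66, SE 0.22, adjusted p = 0.504). Without that library PTK2 was at −0.31 (adjusted p = 0.759). With all 6 libraries PTK2 was the 1 gene of the list with an unadjusted p below 0.05. In the list 3 genes were lower without overlap, FERMT2 among them, and 0 higher. The integrin activator FERMT2 was at −0.38 (SE 0.21), and the adhesion proteins ZYX and ILK at 0.30 (SE 0.19) and 0.31 (SE 0.27), with ILK at 0.15 without control replicate 1. ITGB1, the β chain that pairs with ITGA5, was at 289 ± 39.9 CPM with miR-148a-3p and 341 ± 27.1 CPM with the control, ITGAV at 49.5 ± 6.13 CPM with miR-148a-3p and 39.7 ± 10.1 CPM with the control, and the ligand FN1 at 48.2 ± 18.7 CPM with miR-148a-3p and 42.8 ± 17.3 CPM with the control.

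For cullin ligases and their regulators, the setting in which CAND1 works, 17 of 37 tested genes had lower fitted values and 20 higher ones (median 0.03). CUL4B, a cullin scaffold, was at 150 ± 14.7 CPM with miR-148a-3p and 203 ± 17.8 CPM with the control, without overlap (−0.43, SE 0.19, adjusted p = 0.709). It was the 1 gene of the list with an unadjusted p below 0.05. The substrate receptors FBXW11 and FBXW7 were at −0.58 (SE 0.30) and 0.26 (SE 0.19), and DCUN1D4, which helps attach NEDD8 to cullins, at 0.63 (SE 0.33). The groups of these genes did not overlap either, so 2 genes of the list were lower without overlap and 2 higher. CUL1 was at 81.2 ± 21.1 CPM with miR-148a-3p and 90.4 ± 16.8 CPM with the control, and CAND2 had no read.

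**Figure D4:**
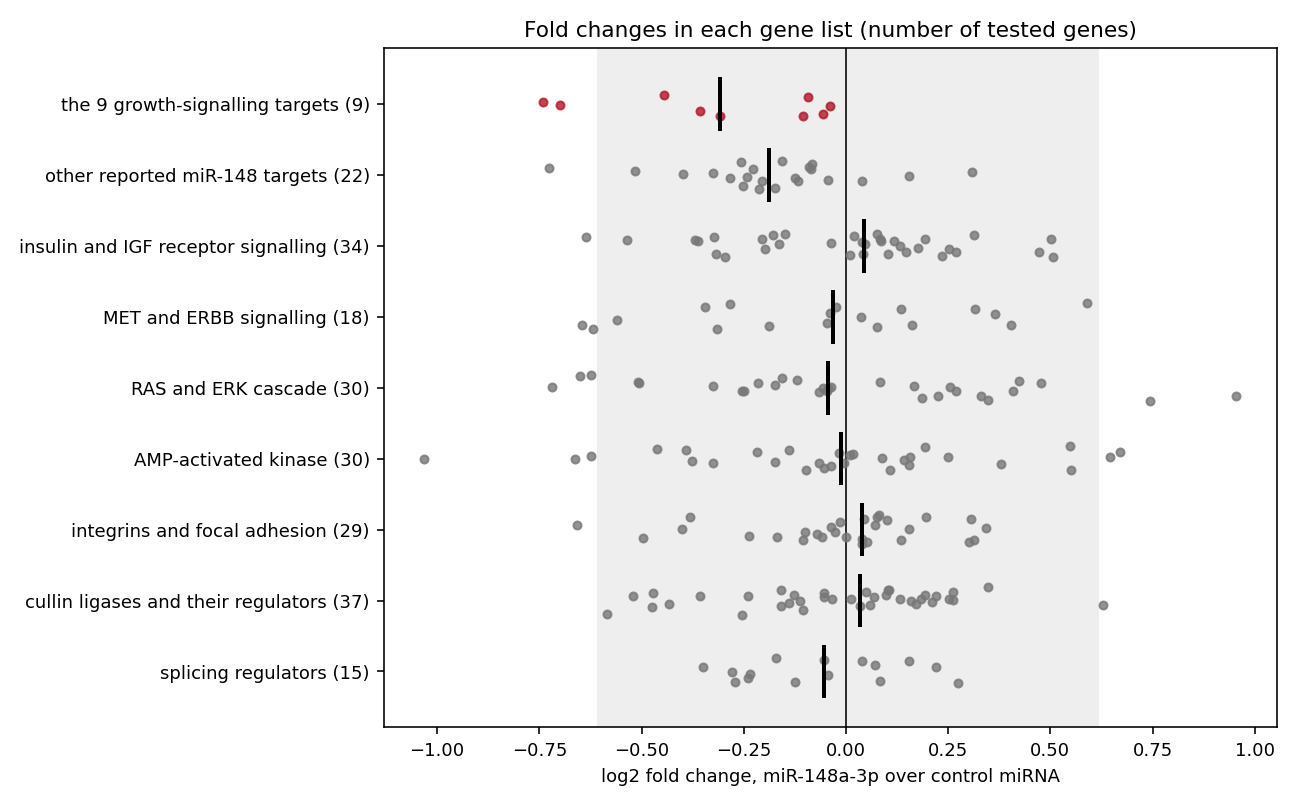
Log2 fold change (miR-148a-3p over control) of every tested gene in each list, with the number tested in brackets, the 9 genes in red, medians as black bars and the middle 90% of all genes as a grey band. The medians of the 7 pathway lists lie between −0.05 and 0.04, that of the other reported miR-148 targets at −0.19 and that of the 9 genes at −0.31, the last at 0.0020 without control replicate 1.

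Other genes reported as targets of the miR-148 family, written down from memory with earlier results of these data known, were set beside the 9. Of 39 listed, 22 were tested, 19 had a fitted value below 0 and 3 above, and the median log2 fold change was −0.19. Over all genes tested 50.5% were below 0, with a median of −0.0039. With edgeR 0 of them passed over all genes tested, and 1 had an unadjusted p below 0.05, where 3.4% of all genes were lower at that level. That gene was CDKN1B, an inhibitor of cyclin-dependent kinases, at 105, 74.5 and 60.9 CPM with miR-148a-3p and 114, 153 and 142 CPM with the control, without overlap (−0.73, SE 0.23, adjusted p = 0.428). The phosphatase CDC25B was at −0.40 (SE 0.23), and at −0.10 without control replicate 1. Also tested were the receptor ACVR1, at 0.31 (SE 0.55) and −0.16 without that library, and the transcription factor RUNX3, at 0.15 (SE 0.27) and 0.44 without it. Without control replicate 1, 17 of 23 tested were lower and the median was −0.11, against 49.0% lower and a median of 0.0083 over all genes.

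By the root mean square distance between log2 levels over the 6 libraries, centred on each gene's mean, the genes most like PRKAA1 among 8874 with at least 10 CPM were NRAS (0.13), WASHC5 (0.16) and THOC1 (0.17). NRAS was at 42.2, 54.4 and 23.0 CPM with miR-148a-3p and 61.6, 80.5 and 46.6 CPM with the control, with the same high and low libraries as PRKAA1. Those most like ROCK1 were NUP42 (0.06), TRIO (0.07) and TAF8 (0.07). Genes near each other in this measure share libraries and depth, and no more is read from it.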

How the data were processed

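The deposited mRNA values are raw read counts per gene symbol, read as 0 where a gene was missing from a library's list, and the authors applied no normalization, as the whole numbers show. The deposited small RNA values are counts per microRNA isoform, per the file headers, summed here by name. Per the submitters' processing notes, cutadapt, STAR, Bowtie2 and the GRCh38 build were used. The sources used here name no counting tool, annotation or strand setting. Per the labels' protocols, 500 ng of total RNA were primed with oligo-dT.

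The main test was that of edgeR 4.0.16 under R 4.3.3 (TMM, filterByExpr with the group, quasi-likelihood F test, 3 libraries against 3, no other term), and p-values were adjusted by Benjamini-Hochberg over all 8921 genes tested, with 0.05 as the threshold. SE and 95% intervals come from the quasi-likelihood F statistic. DESeq2 1.42.0 and limma-voom 3.58.1 were alternatives, beside other size factors, filters, the replicate number as a block, and each library left out. DESeq2 gave no adjusted p for 8 of the 9 genes. Scripts were tested on simulated counts. With 3 against 3, the smallest two-sided p of an exact permutation test is 0.1, and none was used. The labels do not say that replicates are separate cultures, so p-values measure only how these libraries vary, and that may be technical.

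The 9 genes and all lists were chosen with earlier results of these data known. Genes named outside the 9 were partners picked for their role and, of each list, the 2 with the smallest p in each direction; some genes under this rule, and 1 list, are not reported here, though the other lists' counts hold all their genes. Gene spans are RefSeq's on GRCh38.p14. Wilson intervals used scipy 1.17.1.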

Additional observations from a re-analysis of the deposited data

How the results depend on the processing

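None of the 9 genes was called in any of the 15 alternative fits that gave an adjusted p, and the smallest adjusted p of any of them lay between 0.554 and 0.998. PRKAA1, QKI, CAND1 and ROCK1 kept a lower fitted value throughout. With 1 library left out, the number of the 9 with a lower value ranged from 4 to 9 and their median log2 fold change from −0.44 to 0.0020, and both the 4 and the 0.0020 came without control replicate 1. Over the same fits IGF1R ranged from −0.56 to 0.27, MET from −0.16 to 0.16, ERBB3 from −1.06 to 0.075, IRS1 from −0.23 to 0.18 and ITGA5 from −0.27 to 0.044. IGF1R was also higher with limma-voom, at 0.12. Of the other reported targets, RUNX3 ranged from −0.054 to 0.44 and ACVR1 from −0.16 to 1.03. The medians of the 7 pathway lists lay between −0.20 and 0.09 in all fits, and those of 6 lists changed sign in at least 1. The cause of these changes was not tested.

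The number of genes called over the whole table was 1 with edgeR, 18 without the filter on low counts (15659 tested), 7 with DESeq2, 3 with limma-voom, and 1 to 26 with 1 library left out, the most without control replicate 1. The filter of at least 10 counts in 3 libraries kept more genes, 9300. Deviations of same-numbered libraries from their group means correlated at 0.13, 0.09 and −0.0018, and those of different-numbered libraries at −0.13 to 0.03. The same number was the best match for miR-148a-3p replicates 1 and 2, and control replicate 2 was for miR-148a-3p replicate 3. These small values do not decide whether the replicate numbers pair the libraries. With the replicate block 3 genes were called, and PRKAA1 (−0.75, adjusted p = 0.578) and QKI (−0.50, adjusted p = 0.554) had an unadjusted p below 0.05. So did QKI without the filter on low counts and without miR-148a-3p replicate 2, ERBB3 without control replicate 2 and PRKAA1 without control replicate 3. In the main fit 6.79% of all genes were below that level, and the shares in these other fits are not given here. IGF1R, with 93 reads over 6 libraries, has an interval from 0.448 to 1.93 of control, and ROCK1, with 1881, from 0.618 to 1.05. The counts of IGF1R varied 2.58 times as much as Poisson sampling would give with miR-148a-3p and 4.58 times with the control. For ROCK1 the values were larger, 9.37 times with miR-148a-3p and 6.91 times with the control.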

Other observations

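The RAS and ERK cascade with its feedback targets was read from a further list. Of 30 tested genes 17 had lower fitted values and 13 higher ones (median −0.04), and with edgeR 0 passed over all genes tested. An unadjusted p below 0.05 was seen for 4 (1 lower and 3 higher), where 6.79% of all genes had one. Without overlap of the groups 1 was lower and 3 higher, against 6.59% and 6.22% of all genes. EGR1, an immediate early transcription factor, was at 75.8, 103 and 226 CPM with miR-148a-3p and 55.9, 85.2 and 61.4 CPM with the control (log2 fold change 0.95, SE 0.30, adjusted p = 0.408), with the groups overlapping and miR-148a-3p replicate 3 high (0.40 without it). IER3, a stress- and ERK-responsive gene, was at 2602, 1998 and 2777 CPM with miR-148a-3p and 1849, 1867 and 1840 CPM with the control, without overlap (0.41, SE 0.16, adjusted p = 0.626). DUSP5, a phosphatase of nuclear ERK, was at 42.2, 45.0 and 29.6 CPM with miR-148a-3p and 27.0, 85.2 and 85.3 CPM with the control (−0.72, SE 0.34), so control replicate 1 was low there, and the log2 fold change without it was −1.10. NRAS was at −0.62 (SE 0.31).

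Among regulators of splicing and other RNA-binding proteins, the field of QKI, 9 of 15 tested genes had lower fitted values and 6 higher ones (median −0.05). Of these, 0 were called by edgeR and 0 had an unadjusted p below 0.05. RBMS1 was at −0.35 (SE 0.20), and −0.16 without control replicate 1, MSI2 at −0.28 (SE 0.20), TIAL1 at 0.22 (SE 0.22) and PTBP1 at 0.15 (SE 0.18). In this list 2 genes were lower without overlap, RBMS1 among them, and 0 higher, against 6.59% and 6.22% of all genes. KHDRBS1, a STAR-family relative of QKI, was at 224 ± 24.9 CPM with miR-148a-3p and 213 ± 18.3 CPM with the control (SD, n = 3 each).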
